A study of Mus musculus with 12 samples.

Results

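The last step of a circadian day in the mouse urinary bladder, the 4 h between circadian time (CT) 20 and CT0, was examined on 4 of the 12 arrays of a time course: the 2 arrays labelled CT0 and the 2 labelled CT20 in the sample titles. Whole bladders of wild-type female C57BL/6 mice, 10 weeks old, were taken every 4 h at 6 times, with 2 arrays a time. All the mice were first held for 2 weeks in a cycle of 12 h light, 12 h dark, and then moved to constant darkness. CT0 was the subjective dawn and CT20 lay late in the subjective night, so that time and nothing else in the labels set the groups apart. Total RNA was measured on Agilent 1-colour expression arrays. The labels do not say that each array held a mouse of its own, nor after how many days in darkness the samples were taken, and p-values therefore measure the spread between arrays.

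The CT0 arrays lay on slide 1 together with the CT4 arrays, and the CT20 arrays lay on slide 3 together with the CT16 arrays. Time and slide therefore cannot be told apart in any direct comparison of CT0 with CT20. A wave of a 24 h period was also fitted to all 12 arrays with slide as a fixed block. Its fitted CT0 minus CT20 difference is given below as the within-slide value. No slide held both times, so the value came from CT4 minus CT0, CT12 minus CT8 and CT20 minus CT16, joined by the assumed wave. CT12 minus CT8 had the largest weight, with its sign turned. The measured CT0 level entered with a negative sign. A high CT0 level thus lowers the value, which is no separate measure of the step, whichever its sign. Levels are log2 processed signals minus the array's 75th percentile, so that a level of 0 is that percentile and a difference of 1 is a doubling. Differences are CT0 minus CT20 on this log2 scale, with the standard error (SE) of a fit over all 12 arrays. That fit gives each gene a common spread over all times. The SE can thus be too small for genes whose replicates spread more at CT0 or CT20 than at other times.

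In mammals the circadian clock of each cell runs on a feedback loop. CLOCK or NPAS2 pairs with BMAL1, the product of Arntl, and binds E-boxes at the Per, Cry, Nr1d1, Nr1d2 and Dbp genes. PER and CRY proteins then shut off this pair, while NR1D1 and NR1D2 (REV-ERB proteins) silence Arntl and compete with the ROR proteins for its promoter. Mice are active at night, and dawn is when their rest phase begins. In the bladder, the clock is known for letting the organ hold more urine during rest than during activity.

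The 4 arrays differed in the levels of marker genes of other cells. A list of autonomic ganglion neuron markers, of which 12 of 18 were measured, had a mean level of -1.86 and -3.63 on the CT0 arrays, against -4.28 and -3.71 on the CT20 arrays. A list of slow and cardiac muscle markers, of which 10 of 12 were measured, had a mean level of -0.88 and -2.07 on the CT0 arrays, against -2.65 and -2.29 on the CT20 arrays. The CT0 replicate 1 array thus stood highest of the 4 for both lists. A list of hepatocyte markers, of which 16 of 17 were measured, stood at -3.26 and -1.24 on the CT0 arrays, against -4.20 and 0.50 on the CT20 arrays, so that the CT20 arrays bracketed the CT0 arrays. Adipocyte markers (16 of 17 measured) stood at 2.48 and 0.68 on the CT0 arrays, against 1.57 and 2.18 on the CT20 arrays. Bladder tissue itself was well represented, with a mean level of 4.82 at CT0 and 4.62 at CT20 for 25 smooth muscle genes and of 3.42 and 3.57 for 25 urothelial genes. In whole tissue, fewer cells of a type and less RNA per cell cannot be told apart. Replicates of these times also differed the most of the 6 times, with SDs of replicate 1 minus replicate 2 (log2, over genes) of 0.586 at CT0 and 0.589 at CT20, against 0.391 to 0.485 at the other times.

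**Figure D1:**
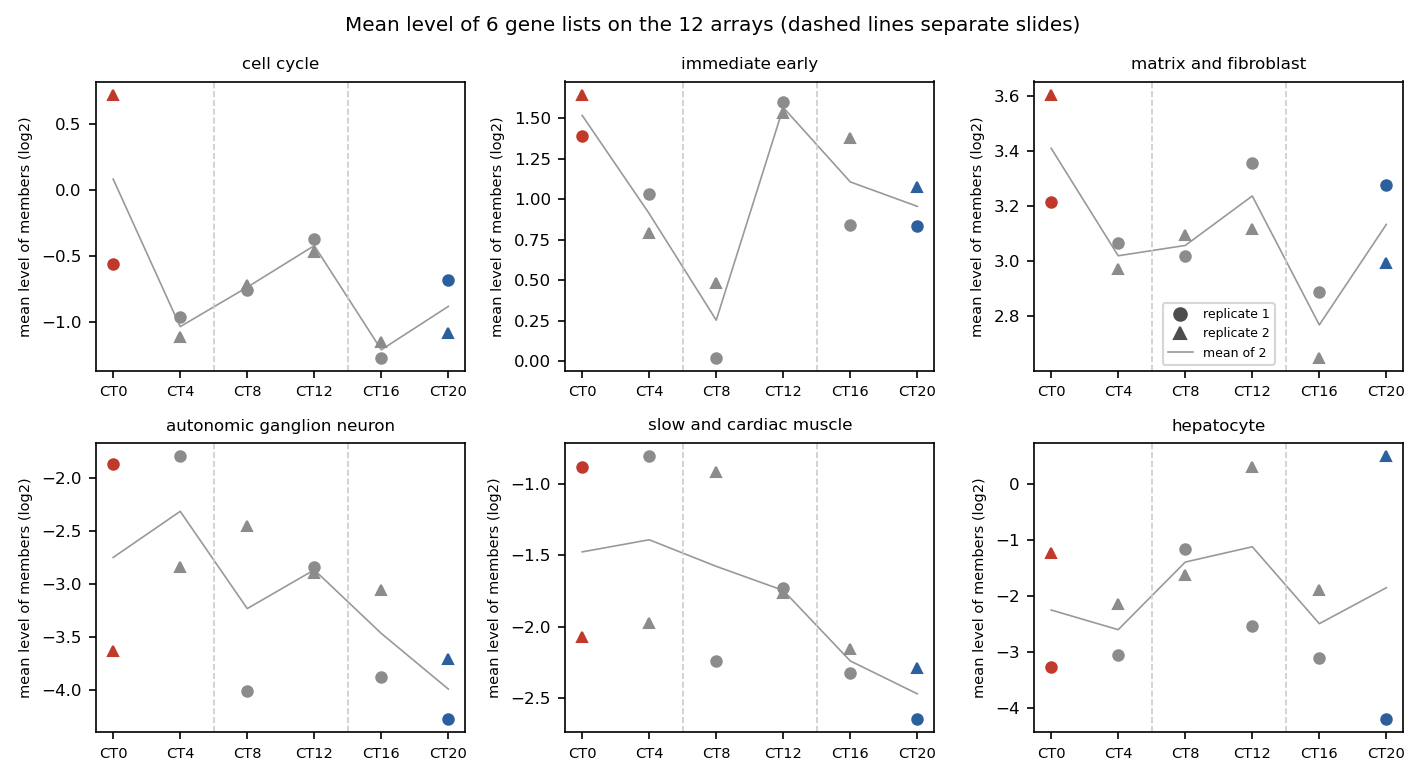
Mean level (log2, 0 being the array's 75th percentile) of the measured members of 6 gene lists on each of the 12 arrays, by circadian time. Circles are replicate 1, triangles replicate 2, the line joins the means of 2 arrays, CT0 is red, CT20 is blue, and dashed lines separate the 3 slides. Cell cycle genes reached 0.72 on the CT0 replicate 2 array, the highest of the 12 arrays. Ganglion and slow muscle markers were high on the first CT0 and CT4 arrays, and slow muscle markers also on CT8 replicate 2 (-0.91).

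No gene was called over the step from CT20 to CT0. Of 18396 genes tested, 0 passed an adjusted p of 0.05 (limma, Benjamini-Hochberg), which is 0% of those tested, and the lowest adjusted p was 0.282. At an unadjusted p under 0.05 there were 890 genes higher at CT0 (4.84%) and 917 lower (4.98%). A descriptive rule, both CT0 arrays beyond both CT20 arrays and a mean difference of at least 1.5-fold, was met by 707 genes higher at CT0 (3.84%) and by 321 lower (1.74%), called separated below. These are the shares of all genes to set beside each count of separated genes below. Without the condition on size, 3394 genes were higher on both CT0 arrays (18.4%) and 4137 were lower on both (22.5%). Of the separated genes 68.8% were higher, a share that moved to 58.5% when arrays were scaled by their median and to 79.2% with normexp background correction. The median difference over all genes was -0.01, with a 5th percentile of -0.44 and a 95th percentile of 0.60. With 2 arrays against 2, an exact permutation test of a single gene cannot go below a two-sided p of 0.333.

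Without the CT0 replicate 1 array the same test called 151 genes (0.821%), 111 of them higher (0.603%) and 40 lower at CT0 (0.217%), on the assumption that the 1 CT0 array left varies as the arrays of the other times do. Without CT0 replicate 2 it called 1 gene, and without either CT20 array it called 0. None of the genes below passed the test with all arrays, and their values are given as measured. The names of these genes, the lists and the comparison were chosen with earlier results of these data known.

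**Figure D2:**
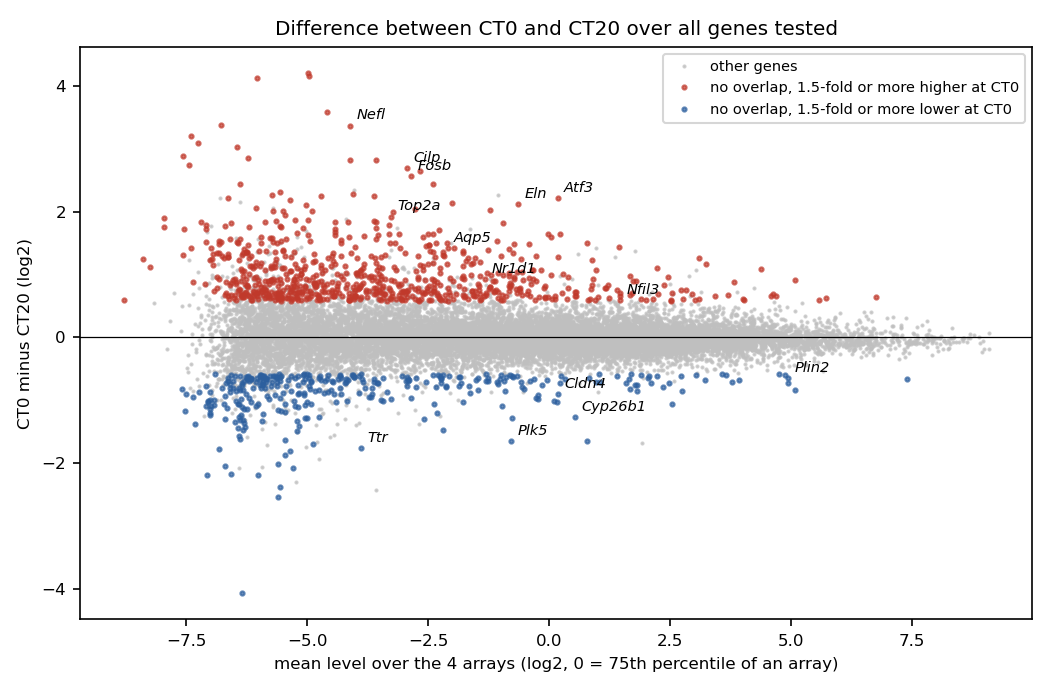
CT0 minus CT20 difference (log2) against the mean level over the 4 arrays (log2, 0 being the array's 75th percentile) for all 18396 genes tested. Red points are the 707 genes separated and higher at CT0, blue points the 321 separated and lower, and grey points the others. The points scatter more widely at low levels than at high ones.

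Nr1d1, which encodes the REV-ERB alpha repressor, differed the most among the core clock genes. It stood at -1.03 and -0.68 on the CT0 arrays, against -1.64 and -1.93 on the CT20 arrays, with a probe at chr11:98878251-98878753 on build mm7. Both CT0 arrays were above both CT20 arrays, by 0.93 ± 0.16 or 1.9-fold (adjusted p = 0.402). Its other probes differed by 0.33 and 0.77. The within-slide value was 1.57 ± 0.13 (adjusted p = 0.0098 in the wave fit), and the fall from CT8 to CT12 gave its largest part. Without the CT0 replicate 1 array the difference between CT0 and CT20 was 1.1. Over the day its mean levels were -0.86 at CT0, 1.06 at CT4, 1.47 at CT8, 0.01 at CT12, -1.66 at CT16 and -1.78 at CT20.

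The other repressors differed less. Per1, an E-box target that is also induced by cellular signals, stood at -0.31 and -0.18 on the CT0 arrays, against -0.40 and -0.81 on the CT20 arrays, without overlap and 0.36 ± 0.17 apart. Per2 stood at -2.37 and -1.72 on the CT0 arrays, against -1.56 and -1.59 on the CT20 arrays; both CT0 arrays were lower, by -0.47 ± 0.24, but a second Per2 probe differed by 0.19, the opposite direction. Per3 was -0.52 ± 0.34 apart and well above background on 3 of the 4 arrays. Cry1 stood at -3.11 and -3.30 on the CT0 arrays, against -3.10 and -3.09 on the CT20 arrays and differed by -0.10 ± 0.18, which is less than its SE. Cry2, the other cryptochrome, stood at -0.94 and -1.19 on the CT0 arrays, against -0.78 and -0.76 on the CT20 arrays, a difference of -0.29 ± 0.10. Nr1d2, the paralogue of Nr1d1, stood at 0.41 and 0.57 on the CT0 arrays, against 0.34 and 0.26 on the CT20 arrays, so that both REV-ERB genes were higher on both CT0 arrays, Nr1d2 by 0.19 ± 0.09. Of the 7 repressors 1 was separated and higher and 0 were separated and lower, and their median difference was -0.10, or -0.01 without CT0 replicate 2, with a within-slide value of -0.81.

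Among the 6 activators measured, 0 were separated in either direction. Arntl stood at 0.68 and 0.27 on the CT0 arrays, against 0.59 and 0.41 on the CT20 arrays, and the groups overlapped, with a difference of -0.02 ± 0.25. Clock stood at 1.61 and 1.68 on the CT0 arrays, against 1.46 and 1.35 on the CT20 arrays, slightly higher on both CT0 arrays by 0.24 ± 0.10, although its 3 other probes ranged from -0.10 to 0.26. Npas2 differed by -0.01 ± 0.32, Rora, whose product activates Arntl, by 0.06 ± 0.15 and Arntl2, a BMAL1 paralogue, by -0.03 ± 0.25, all with overlapping arrays.

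The PAR bZIP family of clock output factors did not differ in 1 direction. Dbp stood at 2.71 and 2.85 on the CT0 arrays, against 2.51 and 1.91 on the CT20 arrays, higher on both CT0 arrays by 0.57 ± 0.28. Hlf stood at 0.33 and -0.45 on the CT0 arrays, against 0.63 and 0.47 on the CT20 arrays, lower on both by -0.61 ± 0.25, and Tef stood at 0.95 and 0.90 on the CT0 arrays, against 1.37 and 1.13 on the CT20 arrays, lower on both by -0.33 ± 0.12. Nfil3, the repressor that competes with these factors for D-boxes, stood at 1.72 and 1.81 on the CT0 arrays, against 1.17 and 1.17 on the CT20 arrays. That is a difference of 0.60 ± 0.13, 1.51-fold, and its second probe differed by 0.53; its within-slide value was -0.65 ± 0.17, the opposite direction. Ciart (Chrono), a repressor of the CLOCK pair, stood at -5.01 and -4.12 on the CT0 arrays, against -4.86 and -5.31 on the CT20 arrays, with overlapping arrays and a difference of 0.52 ± 0.33. Klf15, a regulator of amino acid metabolism, differed by -0.54 ± 0.33, and Nampt, which makes an NAD precursor, by -0.34 ± 0.17. Of 16 output genes 1 was separated and higher, 1 was separated and lower, and the median difference was -0.13.

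Of 9 clock kinases and ubiquitin ligases, 4 were higher on both CT0 arrays and 0 were lower on both, beside 18.4% and 22.5% of all genes, none by 1.5-fold. Gsk3b, a kinase that phosphorylates several clock proteins, stood at -1.68 and -1.51 on the CT0 arrays, against -2.11 and -1.87 on the CT20 arrays, a difference of 0.40 ± 0.11, while its other probe differed by -0.13. Csnk1d and Csnk1e, casein kinases that control the life of PER proteins, differed by 0.03 ± 0.08 and 0.22 ± 0.11.

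The E-box that the CLOCK pair binds was looked for as CACGTG, a palindrome and so the same on both strands, in RefSeq promoter windows from 250 bases before to 50 bases after the start of transcription (build GRCm38.p6). Of 29 clock and clock output genes with a window, 8 held it (27.6%): Bhlhe41, Ciart, Cry1, Klf15, Lonrf3, Per1, Tef and Tspan4. Among all 12002 tested genes with a window, 11% held it. The windows of Nr1d1 and Nfil3, the pair of clock genes that were separated and higher at CT0, did not. Ciart and Per1 are shown because they had the highest CT0 minus CT20 differences among the genes with a match. The Ciart window (chr3:95882179-95882478, minus strand) has 3 matches and the Per1 window (chr11:69098699-69098998, plus strand) has 1, in capitals.
Ciart: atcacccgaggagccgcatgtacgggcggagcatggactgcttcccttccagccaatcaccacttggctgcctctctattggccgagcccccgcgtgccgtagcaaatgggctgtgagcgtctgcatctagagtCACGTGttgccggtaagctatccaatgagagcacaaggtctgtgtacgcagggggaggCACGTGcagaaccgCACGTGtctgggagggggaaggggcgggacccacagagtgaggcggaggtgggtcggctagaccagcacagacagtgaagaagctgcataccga
Per1: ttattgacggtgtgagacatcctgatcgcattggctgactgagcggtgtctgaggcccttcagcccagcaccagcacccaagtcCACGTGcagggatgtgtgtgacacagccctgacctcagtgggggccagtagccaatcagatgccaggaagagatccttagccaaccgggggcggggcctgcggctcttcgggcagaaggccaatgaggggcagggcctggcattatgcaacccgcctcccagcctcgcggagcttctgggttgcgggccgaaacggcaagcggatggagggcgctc

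Immediate early genes, which respond to growth factors, depolarisation and stress within minutes, held some of the largest differences of the step. Of 19 measured, 7 were separated and higher at CT0 and 1 was separated and lower, beside 3.84% and 1.74% of all genes. The median difference of the 19 was 0.22, against -0.01 for all genes, and it was 0.12 without CT20 replicate 1 and 0.49 without CT20 replicate 2. Fosb, a subunit of the AP-1 factor, stood at -2.06 and -1.08 on the CT0 arrays, against -4.87 and -3.39 on the CT20 arrays, a difference of 2.56 ± 0.75 (adjusted p = 0.432). Atf3, a stress-induced repressor, stood at 0.79 and 1.79 on the CT0 arrays, against -0.95 and -0.91 on the CT20 arrays, a difference of 2.22 ± 0.54. Egr2, a zinc finger factor that is also a Schwann cell gene, stood at -0.55 and 0.47 on the CT0 arrays, against -1.82 and -1.90 on the CT20 arrays, a difference of 1.82 ± 0.45. In these 3 genes the CT0 replicate 2 array was the highest of the 4, and no CT20 array reached the lower CT0 array.

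Further members were named after their values were seen. Egr3 differed by 2.01 ± 0.63, Nr4a1 (the orphan receptor NUR77) by 1.09 ± 0.52, Egr1 by 0.84 ± 0.42 and Nr4a2 by 0.72 ± 0.24, all 4 higher on both CT0 arrays. Ccn1, a secreted matricellular protein, stood at 2.56 and 1.48 on the CT0 arrays, against 3.16 and 2.98 on the CT20 arrays, lower on both CT0 arrays. The list had 7, 6, 5 and 9 members separated and higher without CT0 replicate 1, CT0 replicate 2, CT20 replicate 1 and CT20 replicate 2. Its mean level over the day was 1.52 at CT0, 0.91 at CT4, 0.25 at CT8, 1.57 at CT12, 1.11 at CT16 and 0.96 at CT20. CT0 was thus above CT4, which shared its slide, and CT12 was above CT8. Both differences lower the within-slide value, which assumes 1 wave a day and was -0.90 for the list's median. That negative value is therefore no evidence against a higher level at CT0. The same differences had the same signs in Fosb, Atf3 and Egr2, whose within-slide values were -1.73 ± 0.60, -2.10 ± 0.41 and -1.16 ± 0.36.

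The CArG box, the site of serum response factor, was found in the windows of 2 of 14 immediate early genes with a window, Egr2 and Zfp36, and in 1.7% of all tested genes with a window. A window of Egr2 (chr10:67537619-67537918, plus strand, build GRCm38.p6, RefSeq) is shown as that of the member with a match and a large difference, with the CArG box in capitals. Fosb and Atf3 had no match in theirs.
Egr2: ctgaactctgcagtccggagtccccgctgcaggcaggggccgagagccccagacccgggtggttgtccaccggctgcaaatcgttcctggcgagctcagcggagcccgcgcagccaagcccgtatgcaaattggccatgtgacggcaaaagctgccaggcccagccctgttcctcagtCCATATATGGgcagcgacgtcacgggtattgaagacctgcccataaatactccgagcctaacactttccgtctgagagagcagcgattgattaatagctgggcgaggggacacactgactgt

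Of the 24 gene groups, cell cycle genes had the most separated members and the largest median difference. All 25 measured members had a higher mean at CT0 and 12 were separated and higher, with 0 separated and lower, beside 3.84% and 1.74% of all genes. Their median difference was 0.96, against -0.01 for all genes. Top2a, the topoisomerase that untangles chromosomes in mitosis, stood at -2.73 and -1.88 on the CT0 arrays, against -3.91 and -4.55 on the CT20 arrays, a difference of 1.92 ± 0.44 (adjusted p = 0.402), with 0.62 and 0.75 for other probes that were not well above background on all arrays. Ccnb1, the cyclin that drives entry into mitosis, stood at -3.41 and -1.91 on the CT0 arrays, against -4.14 and -4.86 on the CT20 arrays, a difference of 1.84 ± 0.44, and its other probes differed by 1.80 and 1.85. Cenpf and Knl1, kinetochore proteins outside the list, differed by 2.02 ± 0.50 and 2.01 ± 0.67.

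The CT0 replicate 2 array carried much of this difference. The list's mean level was -0.56 and 0.72 on the CT0 arrays, against -0.68 and -1.08 on the CT20 arrays, so that CT0 replicate 1 lay near the higher CT20 array. The CT0 replicate 2 array also had 228 spots marked as outliers by the scanner software, against 76 on CT0 replicate 1 and 82 and 55 on the CT20 arrays. Marked spots were dropped before averaging and so enter none of these levels. Whether that array differed in quality at its other spots was not tested. Without CT0 replicate 1 the median difference was 1.58, 22 of 25 members were separated and higher, and 11 passed an adjusted p of 0.05, beside 0.603% of all genes called and higher in that setting. Without CT0 replicate 2 the median was 0.35, with 8 separated and higher and 1 separated and lower. Without CT20 replicate 1 it was 1.22 with 17 separated and higher, and without CT20 replicate 2 it was 0.75 with 12. Mean levels over the day were 0.08 at CT0, -1.04 at CT4, -0.74 at CT8, -0.42 at CT12, -1.21 at CT16 and -0.88 at CT20, and the within-slide value of the median was -0.54, the opposite direction.

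Cdkn1a (p21), an inhibitor of cell division and a glucocorticoid and p53 target that stands on the same list, was higher at CT0 by a steadier margin. It stood at 0.40 and 0.52 on the CT0 arrays, against -0.21 and -0.19 on the CT20 arrays, a difference of 0.66 ± 0.08 with an adjusted p of 0.282, which was 0.0314 without CT0 replicate 1. The arrays of each time lay close together. Its within-slide value was -0.02 ± 0.08.

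Genes expressed at mitosis often carry a cell cycle homology region (CHR), searched for as TTTGAA, together with boxes that read CCAAT. Each motif was looked for on both strands. Both motifs together were found in 9 of 19 cell cycle genes with a window (47.4%), and in 7 of the 10 of these that were separated and higher, against 5.9% of all tested genes with a window. The CHR motif was found in 15% of all, whatever else they held, and the CCAAT box in 42.3%. Top2a, Cdc20 and Ccnb2 are shown as separated members that carry both, the last 2 of them chosen after their values were seen. Cdc20, an activator of the anaphase-promoting complex, stood at 0.89 and 2.17 on the CT0 arrays, against 0.31 and -0.24 on the CT20 arrays, a difference of 1.5 ± 0.38. Ccnb2, a second mitotic cyclin, stood at -0.93 and 0.98 on the CT0 arrays, against -1.09 and -1.83 on the CT20 arrays, a difference of 1.48 ± 0.54. The windows, from RefSeq on GRCm38.p6 and all on the minus strand, are chr11:99024140-99024439 for Top2a with 2 CHR and 6 CCAAT matches, chr4:118437294-118437593 for Cdc20 with 1 and 2, and chr9:70421505-70421804 for Ccnb2 with 2 and 3, with matches in capitals. Ccnb1 had 2 CCAAT matches and no CHR match in its window.
Top2a: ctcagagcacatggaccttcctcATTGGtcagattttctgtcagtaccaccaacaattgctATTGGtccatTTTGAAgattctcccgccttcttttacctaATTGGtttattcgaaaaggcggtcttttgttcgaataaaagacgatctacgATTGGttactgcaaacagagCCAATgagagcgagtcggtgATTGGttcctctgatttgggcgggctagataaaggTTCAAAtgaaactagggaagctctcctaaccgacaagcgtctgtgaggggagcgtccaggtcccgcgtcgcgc
Cdc20: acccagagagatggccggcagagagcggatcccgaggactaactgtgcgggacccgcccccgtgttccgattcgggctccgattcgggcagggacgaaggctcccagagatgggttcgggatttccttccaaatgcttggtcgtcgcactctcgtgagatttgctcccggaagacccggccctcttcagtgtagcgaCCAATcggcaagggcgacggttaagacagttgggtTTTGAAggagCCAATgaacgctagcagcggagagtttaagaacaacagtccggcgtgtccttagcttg
Ccnb2: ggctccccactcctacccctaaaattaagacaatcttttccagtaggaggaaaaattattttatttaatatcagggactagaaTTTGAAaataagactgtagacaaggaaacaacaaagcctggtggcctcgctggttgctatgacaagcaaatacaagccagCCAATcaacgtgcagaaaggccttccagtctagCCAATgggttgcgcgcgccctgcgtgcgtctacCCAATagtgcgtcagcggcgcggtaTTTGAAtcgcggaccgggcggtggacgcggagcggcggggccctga

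Extracellular matrix genes leaned the same way. Of 25 measured, 5 were separated and higher at CT0 and 0 were separated and lower, beside 3.84% and 1.74% of all genes. A higher mean at CT0 was seen in 19, and the median difference was 0.20. Eln, which encodes elastin, the protein that lets the bladder wall recoil, stood at -0.28 and 1.12 on the CT0 arrays, against -1.75 and -1.66 on the CT20 arrays. That is a difference of 2.12 ± 0.43 or 4.36-fold (adjusted p = 0.402; 0.0225 without CT0 replicate 1). Fbn1 (fibrillin 1), part of the microfibrils that scaffold elastin, stood at 0.35 and 1.22 on the CT0 arrays, against -0.28 and -0.16 on the CT20 arrays, a difference of 1.01 ± 0.33. Loxl1, which crosslinks elastin, stood at 2.68 and 3.10 on the CT0 arrays, against 2.29 and 2.08 on the CT20 arrays, a difference of 0.70 ± 0.17. In all 3 the CT0 replicate 2 array was the highest. Without it 1 matrix gene was separated and higher, 2 were separated and lower, and the median was 0.00; without CT20 replicate 2 the median was -0.05. The within-slide value of the median was -0.16, and for Eln it was -0.02 ± 0.40.

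Cilp, a cartilage matrix protein, had one of the largest differences with close replicates: it stood at -1.74 and -1.46 on the CT0 arrays, against -4.24 and -4.34 on the CT20 arrays, a difference of 2.69 ± 0.47. In the hyaluronan and proteoglycan list 2 of 14 genes were separated and higher and 1 was separated and lower. The shares of all genes were 3.84% and 1.74%. Has2, a hyaluronan synthase, stood at -1.44 and -1.32 on the CT0 arrays, against -2.18 and -2.12 on the CT20 arrays, a difference of 0.77 ± 0.21, and its within-slide value was 0.96 ± 0.18, the same direction. Adamts1, a protease that cleaves versican, stood at 1.23 and 1.36 on the CT0 arrays, against 0.46 and 0.47 on the CT20 arrays, a difference of 0.83 ± 0.18, with a within-slide value of -0.68 ± 0.14. Among 25 smooth muscle genes 1 was separated and higher, near the share of 3.84% of all genes. It was Cald1 (caldesmon, an actin-binding protein), at 3.28 and 4.40 on the CT0 arrays, against 2.43 and 2.90 on the CT20 arrays. The median difference of the smooth muscle genes was 0.15, and 21 of 25 had a higher mean at CT0. The median was 0.24 without CT0 replicate 1 and 0.00 without CT0 replicate 2, and its within-slide value was -0.13, the opposite direction.

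**Figure D3:**
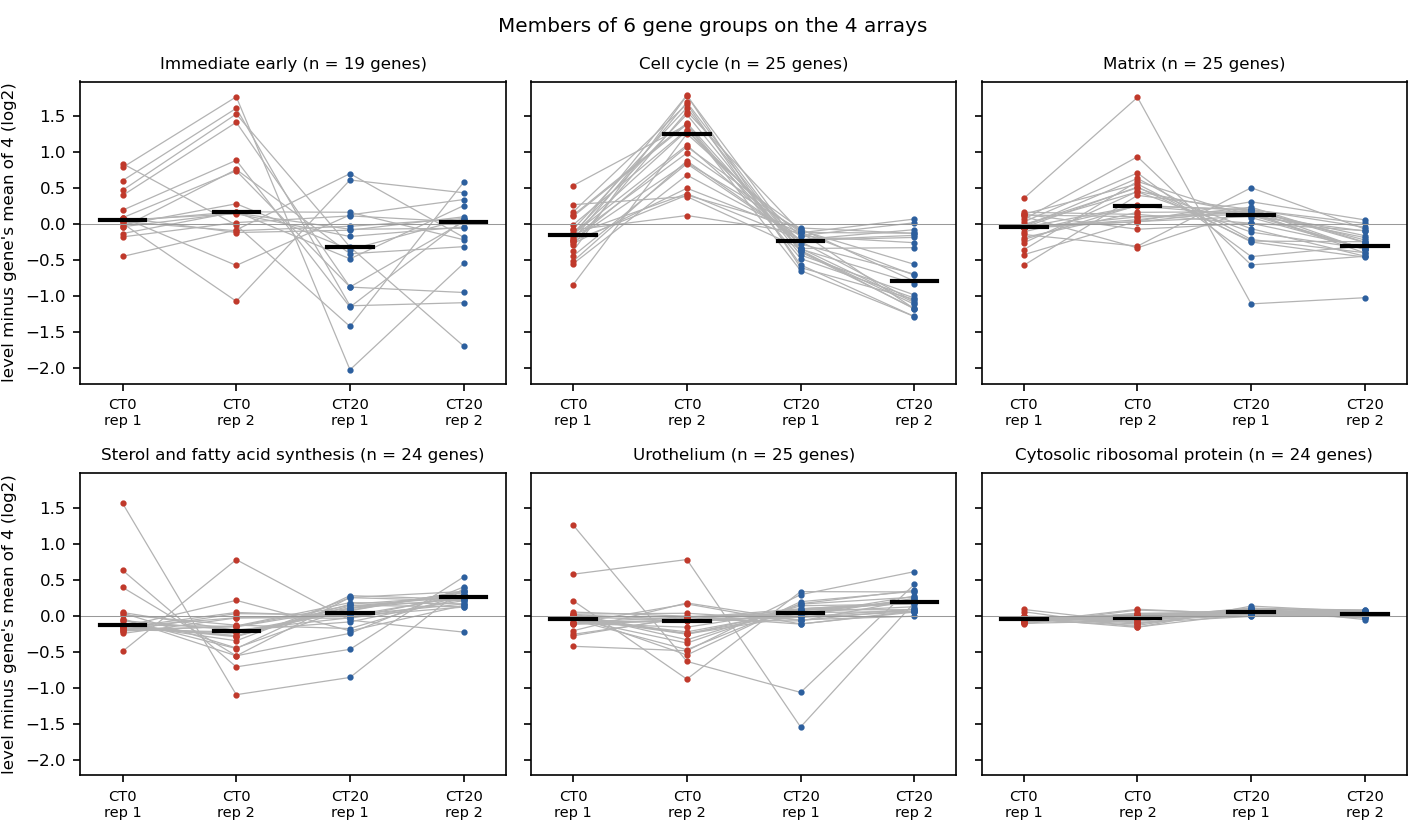
Members of 6 gene groups on the 2 CT0 arrays (red) and the 2 CT20 arrays (blue), each as the log2 difference from the gene's own mean over the 4 arrays. Grey lines join a gene's values, and black bars are medians over the group's members. Cell cycle genes were highest on the CT0 replicate 2 array, and ribosomal protein genes barely spread on the same axis, with a median difference of -0.07.

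Genes of sterol and fatty acid synthesis leaned lower at CT0. Of 24 measured, 21 had a lower mean, 14 were lower on both CT0 arrays than on both CT20 arrays, beside 22.5% of all genes, and 1 of these differed by 1.5-fold. Their median difference was -0.27, against -0.01 for all genes. Elovl6, a fatty acid elongase, stood at 2.99 and 2.47 on the CT0 arrays, against 3.29 and 3.37 on the CT20 arrays, a difference of -0.59 ± 0.20. Scd2, a desaturase, stood at 5.17 and 5.02 on the CT0 arrays, against 5.47 and 5.58 on the CT20 arrays, a difference of -0.43 ± 0.12, and Fdft1, squalene synthase, differed by -0.51 ± 0.19 while its second probe differed by 0.22. The median ranged from -0.42 to -0.21 over the arrays left out, and its within-slide value was 0.36, the opposite direction.

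Fat storage and fatty acid handling genes gave a similar lean. Plin2, which coats lipid droplets, stood at 4.67 and 4.58 on the CT0 arrays, against 5.21 and 5.33 on the CT20 arrays, a difference of -0.65 ± 0.12. Acot1 and Acot2, acyl-CoA thioesterases induced by fasting, differed by -0.49 ± 0.10 and -0.41 ± 0.10. Of the 20 fasting genes 17 had a lower mean at CT0, 0 were separated and higher, 1 was separated and lower, and the median difference was -0.13. The median was -0.09 without CT20 replicate 2, and its within-slide value was 0.12, the opposite direction. Adipocyte markers had their lowest mean level of the 12 arrays on CT0 replicate 2, and their part in these differences was not tested.

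Urothelial genes, which line the bladder lumen, also leaned lower. Of 25 measured, 20 had a lower mean at CT0, 15 were lower without overlap, beside 22.5% of all genes, 2 were separated and lower, and 1 was separated and higher. Cldn4, a tight junction claudin, stood at -0.23 and -0.30 on the CT0 arrays, against 0.48 and 0.80 on the CT20 arrays, a difference of -0.91 ± 0.19. Upk1a, a uroplakin of the luminal plaque, stood at 4.45 and 4.04 on the CT0 arrays, against 4.67 and 4.86 on the CT20 arrays, a difference of -0.52 ± 0.17, and Cldn8, another claudin, differed by -0.54 ± 0.18. The median of the list was -0.24, with a within-slide value of 0.24, the opposite direction, and -0.16 without CT20 replicate 2. The mean level of the list was lowest on CT0 replicate 2, at 3.33, and highest on CT20 replicate 2, at 3.69, of the 4 arrays.

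Connexins form gap junctions between cells, and the median difference of the 12 measured was 0.04, which ran from -0.19 to 0.19 over the arrays left out. Gjb6 stood at 3.71 and 3.51 on the CT0 arrays, against 4.07 and 4.30 on the CT20 arrays, a difference of -0.57 ± 0.14. Gjb2 was also lower on both CT0 arrays, by -0.51 ± 0.15.

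Of 24 water and ion transport genes 3 were separated and higher and 0 separated and lower, beside 3.84% and 1.74% of all genes. The list's median difference was -0.15. Without the condition on size, 7 were higher and 11 lower on both CT0 arrays, beside 18.4% and 22.5% of all genes. The median was -0.07 without CT20 replicate 2, and its within-slide value was 0.12, the opposite direction. Aqp5, a water channel of secretory epithelia, stood at -1.5 and -1.28 on the CT0 arrays, against -3.02 and -2.61 on the CT20 arrays, a difference of 1.42 ± 0.19 and 2.67-fold (adjusted p = 0.282). Both CT0 arrays lay well above both CT20 arrays, and the within-slide value was -0.14 ± 0.27. Scnn1g, a subunit of the epithelial sodium channel, stood at 1.83 and 1.40 on the CT0 arrays, against 2.18 and 2.09 on the CT20 arrays, lower on both CT0 arrays by -0.52 ± 0.15.

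Of 25 receptors and enzymes of autonomic and prostanoid signalling 4 were separated and higher and 2 were separated and lower. The shares of all genes were 3.84% and 1.74%, and the median difference of the list was 0.32. This median was 0.14 with normexp, 0.07 in the authors' deposited table and 0.18 over the 20 members well above background on all 12 arrays, and its within-slide value was -0.02. Adrb1, the beta-1 adrenergic receptor, stood at -3.42 and -4.11 on the CT0 arrays, against -2.88 and -2.68 on the CT20 arrays, a difference of -0.99 ± 0.32, with -0.31 for a second probe. Ptgs1, cyclooxygenase 1, stood at 1.88 and 1.96 on the CT0 arrays, against 2.34 and 2.75 on the CT20 arrays, a difference of -0.62 ± 0.14. Adra2a, the alpha-2A adrenergic receptor, was higher on both CT0 arrays by 0.39 ± 0.12. Of 16 stretch and purinergic genes 0 were separated. P2ry6, a receptor for uridine nucleotides, was higher on both CT0 arrays by 0.43 ± 0.08, and P2ry2, a receptor for ATP and UTP, was lower on both by -0.38 ± 0.14.

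Several of the largest single differences rested on genes of nerve. Nefl, the neurofilament light chain, stood at -1.11 and -3.74 on the CT0 arrays, against -6.50 and -5.10 on the CT20 arrays, a difference of 3.37 ± 1.05, and a second probe differed by 0.83. Chgb, a protein of secretory granules, stood at -0.93 and -2.56 on the CT0 arrays, against -3.91 and -3.68 on the CT20 arrays, and Vat1l, a gene of neurons, at -0.12 and -2.58 on the CT0 arrays, against -4.55 and -3.46 on the CT20 arrays. In each the CT0 replicate 1 array was more than 1.5 (log2) above CT0 replicate 2. Of 12 ganglion markers measured 5 were separated and higher at CT0, beside 3.84% of all genes. Their median difference was 0.91, and 0.24 without CT0 replicate 1. The first CT4 array, on the same slide, had the highest ganglion level of all 12, -1.79. Nts (neurotensin, a gut and nerve peptide) instead stood at -1.39 and -0.50 on the CT0 arrays, against -3.40 and -2.77 on the CT20 arrays, with CT0 replicate 2 the higher.

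Inflammatory genes among the largest differences were Il1b and Spp1. Il1b, the interleukin-1 beta cytokine, stood at -3.15 and -1.82 on the CT0 arrays, against -5.03 and -4.46 on the CT20 arrays, a difference of 2.25 ± 0.48. Spp1 (osteopontin) stood at -2.59 and 0.25 on the CT0 arrays, against -4.03 and -3.21 on the CT20 arrays, a difference of 2.45 ± 0.77, with CT0 replicate 2 well above the rest. Retnlg, a neutrophil gene, stood at -1.5 and -3.90 on the CT0 arrays, against -6.13 and -4.91 on the CT20 arrays, here with CT0 replicate 1 the highest. Of 19 leukocyte markers 2 were separated and higher and 0 were separated and lower, beside 3.84% and 1.74% of all genes. Their median difference was 0.21 (0.09 without CT0 replicate 1). Their mean level was -1.11 and -1.16 on the CT0 arrays, against -1.35 and -1.46 on the CT20 arrays. The part of leukocyte number in these values was not tested. Of 23 interferon and chemokine genes 2 were separated in each direction, beside 3.84% higher and 1.74% lower among all genes. Ifit3, an interferon-induced gene, was lower on both CT0 arrays by -0.37 ± 0.09.

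Among the genes lowest at CT0 relative to CT20, Ttr (transthyretin, a carrier of thyroid hormone and retinol made chiefly by liver) stood at -4.75 and -4.80 on the CT0 arrays, against -3.40 and -2.62 on the CT20 arrays, a difference of -1.76 ± 0.43. It is a member of the hepatocyte list, whose mean levels stand above. Cyp26b1, which degrades retinoic acid, stood at -0.04 and -0.14 on the CT0 arrays, against 1.03 and 1.33 on the CT20 arrays, a difference of -1.27 ± 0.26. Adm, the vasodilator peptide adrenomedullin, stood at -0.25 and -0.55 on the CT0 arrays, against 0.70 and 0.54 on the CT20 arrays, a difference of -1.01 ± 0.23. Dmbt1, a secreted mucosal defence protein, differed by -1.29 ± 0.29, and Plk5, a polo-like kinase family member, by -1.65 ± 0.48. Exoc3l2 had the smallest p of the 15 lowest genes, at -0.63 and -0.80 on the CT0 arrays, against 0.20 and 0.32 on the CT20 arrays, a difference of -0.97 ± 0.13 (adjusted p = 0.282; 0.0378 without CT0 replicate 1). Cyp1a1 and Ahrr, targets of the aryl hydrocarbon receptor, differed by -1.04 ± 0.46 and -0.91 ± 0.44. They were the 2 separated genes of 25 on the xenobiotic list, beside 1.74% separated and lower among all genes. The median difference of that list was -0.05, with a lower mean at CT0 in 16 members and a higher mean in 9.

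Other gene groups held few separated members or none, apart from the glucocorticoid list. Of 24 cytosolic ribosomal protein genes and 25 respiratory chain genes 0 were separated, with median differences of -0.07 and -0.03. Of 20 heat shock and chaperone genes 0 were separated; Dnajb1, an HSP70 cochaperone, stood at 4.82 and 4.97 on the CT0 arrays, against 4.54 and 4.35 on the CT20 arrays, higher by 0.45 ± 0.10. Of 20 endoplasmic reticulum folding genes 17 had a lower mean at CT0, with a median of -0.15 and 0 separated. That median was -0.02 without CT0 replicate 1 and -0.25 without CT0 replicate 2, with a within-slide value of 0.04. Among 5 cold-inducible RNA-binding genes Srsf5, a splicing factor, stood at 2.29 and 1.95 on the CT0 arrays, against 2.67 and 3.02 on the CT20 arrays, a difference of -0.72 ± 0.16, while Rbm3 differed by 0.20 ± 0.12. Of 19 glucocorticoid response genes 3 were separated and higher, Cdkn1a, Errfi1 and Ddit4, beside 3.84% of all genes. The median of the list was 0.09, against -0.02 without CT0 replicate 1 and 0.28 without CT0 replicate 2.

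The step to subjective dawn was set against the step to subjective dusk, CT12 minus CT8, which shares no array with it and lies within slide 2. Over all genes 0 differed between the steps at an adjusted p of 0.05 (limma, Benjamini-Hochberg; 0% of 18396), and 1489 did at an unadjusted p under 0.05 (8.09%). Nr1d1 had the smallest p of all genes. It was 0.93 in the step to CT0 and -1.46 in the step to CT12, a difference between steps of 2.39 ± 0.23 with an adjusted p of 0.126. Cry1 was -0.10 in the step to CT0, which is less than its SE, and 1.11 in the step to CT12. The signs were turned for Per3, at -0.52 and 1.22, and for Per2, at -0.47 and 0.76. Per3 was not well above background on all CT0 and CT20 arrays, and a second Per2 probe was higher at CT0. Per1 was higher at the later time in both, by 0.36 and 1.15. None of these passed the test of the difference.

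Cys1, which encodes a ciliary protein, followed Nr1d1 in that ranking with the opposite signs. It stood at 2.06 and 1.87 on the CT0 arrays, against 2.79 and 2.71 on the CT20 arrays. Its difference was -0.78 in the step to CT0 and 1.22 in the step to CT12. The within-slide value was -1.27 ± 0.13 (adjusted p = 0.0255 in the wave fit). That value takes up the same CT12 minus CT8 difference as the ranking, so its p is no separate support for the step. Ceacam1, an adhesion protein, was 1.27 and -0.80, Dlgap3, a postsynaptic scaffold protein, 0.97 and -0.29, and Has2 0.77 and -1.11. Atf3 and Fosb were higher at the later time of both steps, by 2.22 and 2.56 for CT0 and by 2.15 and 1.35 for CT12.

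**Figure D4:**
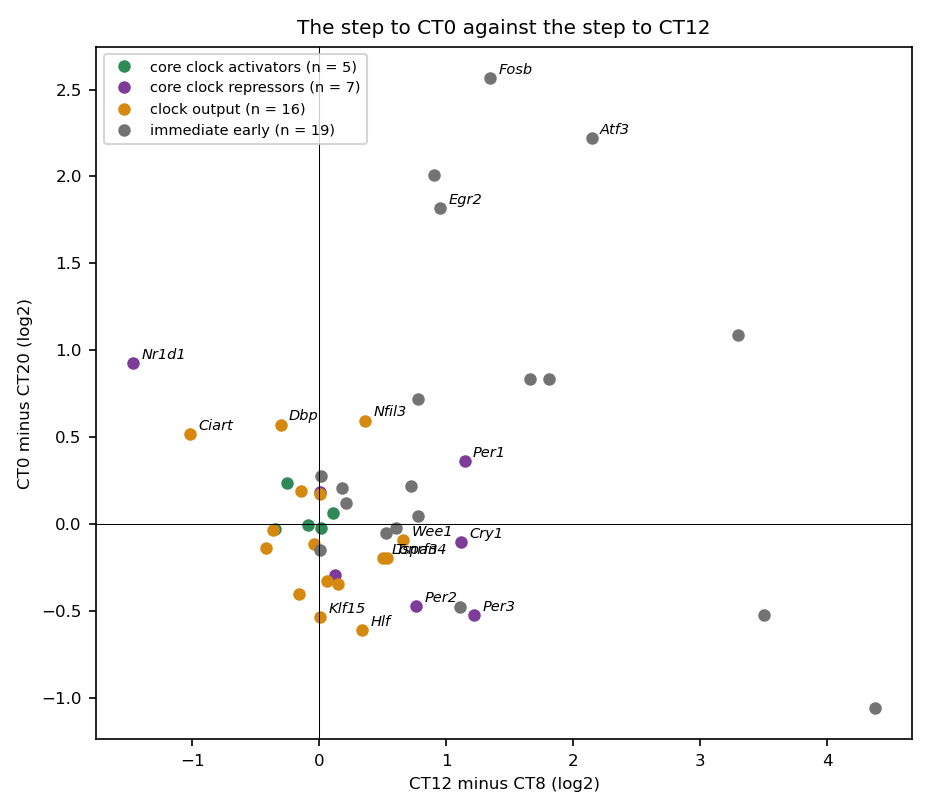
Difference CT0 minus CT20 (vertical axis, log2) against CT12 minus CT8 (horizontal axis, log2) for core clock activators, core clock repressors, clock output genes and immediate early genes. Nr1d1 and Ciart lie at the upper left, higher at CT0 than CT20 and lower at CT12 than CT8; Per2, Per3 and Cry1 lie at the lower right; and Atf3 and Fosb lie at the upper right.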

How the data were processed

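Total RNA of mouse bladder was measured in 12 samples on Agilent 1-colour arrays. Intensity per spot was deposited as scanner output of Feature Extraction 10.5.1.1, which per the file headers removed trends across each array but did no normalisation between arrays. Further deposited columns mark each spot as outlier or well above background. The authors' value table holds log2 values for 27883 probes, with column medians from 8.71 to 8.73; the submitters' processing notes name R 2.8.1 and not the normalisation or filter, and it served as an alternative.

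Log2 processed signals of 43379 non-control spots, outliers dropped, were averaged per probe and scaled by each array's 75th percentile. Of 41174 probes, 271 lacked a value on some array and were dropped. Names came from RefSeq tables (GRCm38.p6) for 79.5% of the 40903 probes kept and otherwise from the files. Probe coordinates are mm7; probes were not placed in exons, for want of an mm7 annotation. Each name took its probe of highest mean level. The 18396 names well above background on at least 4 arrays were tested, 3800 of them placeholders. A 1-way limma 3.58.1 fit (R 4.3.3) of the 6 times (6 residual degrees of freedom) gave CT0 minus CT20 and its difference from CT12 minus CT8, with Benjamini-Hochberg adjustment over all genes and two-sided tests. Motifs and figures used Python 3.11.15.

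The members and lists were chosen with earlier results of these data known. The rule for named genes took every core clock and output gene, the 15 highest and 15 lowest differences at an unadjusted p under 0.05 without overlap among bright named genes, up to 3 members of each other group by size of the test statistic, and the 5 smallest p-values of the step comparison. Genes outside it are list members named after their values were seen. Some genes that the rule takes are in the list counts and are not reported here. Alternatives covered background correction, scaling, filters, probes, blocks, variance priors and left-out arrays. Between 64.2% and 70.2% of spots per array were well above background and 0 were saturated. Precision is limited by the number of arrays. On simulated data with 200 changed genes among 18396, the CT0 against CT20 test recovered 0% of log2 differences of 0.5, 61.5% of 1 and 91% of 2. The simulated noise was independent, with a common spread per gene over all times and no slide effect. In the data CT0 and CT20 lie on different slides and their replicates differed the most. The simulated shares therefore do not give the recovery to be had in this step.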

Additional observations from a re-analysis of the deposited data

How the results depend on the processing

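Of 18396 genes, 0 passed an adjusted p of 0.05 for CT0 against CT20, and 1807 had an unadjusted p under 0.05. The count was 4 in the 24 h wave with slide as a fixed block, 111 in the wave without a block and 1 in the authors' deposited table, and it ran from 0 to 151 over the arrays left out, the highest without CT0 replicate 1; the other settings gave 0. The step comparison called 0 genes, and 1 with normexp correction, 2 in the authors' table, 1 without a filter on dim probes and 1 with an intensity trend; leaving out an array gave 0 to 5. It gave 5 without CT0 replicate 1 and 4 without CT8 replicate 1. Separated genes numbered 707 higher and 321 lower. They became 271 and 71 with normexp, 228 and 80 in the authors' table, and 5883 and 604 without a filter. The lower count was 174 when all 12 arrays had to be well above background and 485 with every probe on its own. Leaving out an array, which eases the rule, gave 979 to 1285 higher and 509 to 835 lower. The cause of the other shifts was not tested.

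With the replicate number as a block, 0 genes passed for the step and 2059 had an unadjusted p under 0.05, and 0 passed in the step comparison. Deviations of samples with the same number correlated from -0.20 to 0.44 over the pairs of times, and at 0.31 for CT0 with CT20. These values do not settle whether the numbers pair the samples. Of 124 named genes, 83 had the opposite sign in the wave with the fixed slide block and 37 in the wave without it; at most 5 did under any other setting. Of the medians of 24 gene groups, 17 had the opposite sign in the wave with the fixed slide block. The measured CT0 level enters that wave's value with a negative sign, and genes were partly named for large differences. Opposite signs in that wave are thus partly built in, and do not show how firm the step is. Without at least 1 of the 4 arrays, 22 medians changed sign or moved by over 1.5 times, 8 of them in sign. With 2 arrays a time, and CT0 and CT20 on different slides, the design limits what the step can show.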

Other observations

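The 151 genes called without CT0 replicate 1, 0.821% of those tested, held 11 of the 25 cell cycle genes (Cdkn1a, also on the glucocorticoid list, among them), 1 matrix gene (Eln), 1 immediate early gene (Nr4a2), 1 core clock repressor (Nr1d1) and 1 urothelial gene, and 0 members of the other lists. The urothelial gene was Upk3a, a uroplakin, which stood at 7.61 and 6.52 on the CT0 arrays, against 7.74 and 7.73 on the CT20 arrays. Of the 111 genes called by the 24 h wave without a block, 2 were among them.

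Ucp1, the uncoupling protein of brown fat, was the separated member of the adipocyte list, named after its values were seen. It stood at -8.27 and -7.17 on the CT0 arrays, against -6.17 and -5.71 on the CT20 arrays, a difference of -1.78 ± 0.37 (SE), and was well above background on 2 of the 4 arrays. Tnnt2, a troponin of heart muscle on the slow muscle list, was lower on both CT0 arrays, a difference of -0.53, while that list's separated members (Myh6, Myh7 and Csrp3) were higher. Myh7, a slow myosin, stood at -2.07 and -1.44 on the CT0 arrays, against -2.81 and -2.74 on the CT20 arrays.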
